A study of Mus musculus and Homo sapiens with 7 samples.

Results

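Of the 10021 guides of a pooled CRISPR/Cas9 knockout library, 2247 had no read in any of the 5 screen libraries, or 22.4% (95% Wilson interval 21.6 to 23.3%). These absent guides were chosen by that reading alone: a normalised count of 0 in all 3 libraries of dead galactose cells and in both libraries of living glucose cells. Their zeros are therefore a description and carry no test. They comprised 2074 of 9271 gene guides, 72 of 375 non-targeting guides and 101 of 375 safe-targeting guides.

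The screen was made in B16-F10 cells, a mouse melanoma line, carrying a lentiviral Cas9 nuclease and sorted for a fluorescent protein. All cells of both groups received guides and were selected with 2 µg/mL puromycin for 7 days. The groups were dead cells collected after 48 h in galactose medium, with 3 libraries, and living cells after 48 h in glucose medium, with 2 libraries. Medium and cell state changed together, so the effects of medium and of death cannot be told apart, and guides were amplified from 5 µg of genomic DNA. Whether each library stands for its own culture is not in the labels, and any p-value below rests on differences among the 5 libraries that may be technical.

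In such a pool, each cell carries a guide integrated in its genome, and the guide is read as a tag for that cell. A guide whose target a cell needs for growth is lost as its cells stop dividing, whereas non-targeting guides cut nothing and safe-targeting guides cut DNA outside genes. A guide may also be missing because it was scarce or lacking in the library that was introduced. The starting library was not analysed here, so loss during culture and lack from the start cannot be told apart for any guide below. The files hold no guide sequences, so guides are named by gene and guide number. Guide numbers were assigned here, in the order of the serial numbers in the guide IDs of each gene ID.

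Most guides were either absent from all 5 libraries or read in every one of them. Whole reads recovered from the normalised counts came to 14722843, 13275778 and 15591454 in the dead galactose libraries a, b and c, and to 6801049 and 8492138 in the living glucose libraries a and b. Detected guides had a median of 697, 632 and 699 reads in the dead galactose libraries and of 360 and 447 reads in the living glucose libraries. A guide at 0 across all 58883262 reads may still have been present at a level for which up to about 3 reads would be expected. That is the upper limit on the expected count that a count of 0 allows. Intervals and limits cover counting error only, since reads were not tagged as molecules.

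By the number of libraries at 0, 6725 guides were read in all 5 libraries, 377 were at 0 in 1 library, 216 in 2, 237 in 3 and 219 in 4, against 2247 at 0 in all 5. Just outside the rule, 55 guides had a single read over the 5 libraries and 47 had 2 or 3 reads. Of the 55 single reads, 14, 17 and 13 lay in the dead galactose libraries a, b and c, and 3 and 8 in the living glucose libraries a and b. Guides with so few reads were rare beside the absent ones: 3386 guides had 1001 to 10000 reads.

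Absence was nearly the same set in both groups. In all 3 dead galactose libraries 2422 guides were at 0, and in both living glucose libraries 2450 were at 0. Only 175 guides were at 0 in every dead galactose library yet read in living glucose cells, with at most 107 normalised counts there. Conversely, 203 were at 0 in both living glucose libraries yet read in dead galactose cells, with at most 191 normalised counts. No guide above 191 normalised counts in either group was thus missing from every library of the other.

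Absence was found in all 3 kinds of guide, targeting a gene or not. The share was 22.4% of gene guides (95% Wilson interval 21.5 to 23.2%), 19.2% of non-targeting guides (15.5 to 23.5%) and 26.9% of safe-targeting guides (22.7 to 31.6%). The gene share lay between the shares of the control kinds, whose intervals overlap only narrowly. Where a guide was detected, its median normalised count was 562 among gene guides, 597 among non-targeting ones and 688 among safe-targeting ones.

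Absent guides were spread over most genes. Of 919 genes with exactly 10 guides, 104 had none absent, 226 had 1, 242 had 2, 175 had 3, 107 had 4 and 32 had 5. The mean was 2.24 absent guides per gene with an SD of 1.61, where a single share of absence for all gene guides would give a binomial SD of 1.32. Both ends were fuller than that: 104 genes had none absent where 73.0 would be counted at a single share, and 33 genes (3.59%) had 6 or more where 10.4 would be. Those 33 genes held 233 absent guides, 11.2% of all absent gene guides, and 97 detected ones.

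In 3 genes every guide was absent. They were Gm14483, an H2al1-type histone gene of the testis, Mfap1b, a copy of a spliceosome component, and Sprr2a1, a protein of the cornified skin envelope. All 3 have near-identical copies, and how the authors counted a guide shared by copies is not given in the sources used here, so their zeros are uncertain. The same question arises for Hist1h2af and Serpina1b, which also belong to families with related genes. Within families the counts varied: Sprr2d had 3 of 10 absent and Sprr2i 1, while Serpina1b had 6 and Serpina1d 1. In 14 genes whose name is shared with another RefSeq gene, 48 of 139 guides were absent (34.5%), against 22.2% in the other genes. Mfap1b and Sprr2a1, with 10 of 10 guides absent each, are among the 14 and raise that share. It therefore does not describe shared names in general.

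The 33 genes are described below by known role, a grouping made after they were seen and not tested. Counts of single guides are given as examples, and a difference in a single guide is not a difference of its gene. The first of the 33 genes act in RNA processing and transcription. Nol11, a factor of ribosomal RNA synthesis and processing, had 8 of 10 guides absent. Its guide 2 had 4069, 4811 and 7104 normalised counts in dead galactose cells and 4225 and 4235 in living glucose cells, and its guide 3 had 42.6, 152 and 72.0 in dead galactose cells and 81.6 and 41.2 in living glucose cells. The gene was thus represented by a very common guide and a scarce one, each overlapping between the groups.

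Ints3, a subunit of the Integrator complex that cuts nascent RNA, also had 8 absent. Its guide 7 had 2410.3, 2605 and 2243 normalised counts in dead galactose cells and 3091 and 2520.2 in living glucose cells, and guide 6 had 483, 413 and 283 in dead galactose cells and 515 and 466 in living glucose cells. Ints11, listed as Cpsf3l, is the endonuclease of the same complex and had 6 absent, with a further guide at 6 reads in all. Las1l, an enzyme of ribosomal RNA processing, had 7 absent, and its guide 4 had 4448, 4497 and 5741 normalised counts in dead galactose cells and 3212 and 3308 in living glucose cells. Over its 3 detected guides, the mean log2 difference of dead galactose minus living glucose was only 0.07 ± 0.20 (SE).

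Ccdc12, a spliceosome protein, had 6 absent and only 1 common guide. Its guide 3 had 937, 885 and 1104 normalised counts in dead galactose cells and 814 and 805 in living glucose cells, while guides 6, 7 and 8 never exceeded 45.5 in any library. Mettl16, which methylates U6 small nuclear RNA, had 6 absent, and its guide 5 had 2439, 2708 and 2379.9 normalised counts in dead galactose cells and 2754 and 2589 in living glucose cells. Gpn2, a GTPase of RNA polymerase II assembly, had 6 absent and its guide 1 was left with 2 reads. Adat2, the catalytic subunit of a tRNA adenosine deaminase, had 7 absent.

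Others of the 33 act in genome copying and division. Rmi1, which acts with the BLM helicase and topoisomerase III alpha, had 9 of 10 absent. Its remaining guide 1 was common, at 1633, 1617 and 2136 normalised counts in dead galactose cells and 1205 and 1457 in living glucose cells. Spdl1, the kinetochore adaptor Spindly, had 7 absent, and its guide 5 had 1069.7, 1316 and 1049 normalised counts in dead galactose cells and 918 and 999.9 in living glucose cells. Donson, a replisome component, had 6 absent while its other 4 guides lay between 1366 and 4601 normalised counts in every library.

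Dscc1, part of a loader of the replication clamp PCNA, had 6 absent and 2 further scarce guides. Its guide 5 had 0, 0.863 and 30.98 normalised counts in dead galactose cells and 40.8 and 83.6 in living glucose cells. Guide 4 had 480.1, 506 and 256 in dead galactose cells and 336 and 386 in living glucose cells, with overlap between the groups. Sephs2, which makes the selenium donor for selenoproteins, and Ciapin1, a factor of cytosolic iron-sulphur assembly, had 6 absent each. No guide of Sephs2 exceeded 260 normalised counts in any library.

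The remaining genes with 6 or more absent guides were not grouped by role, and several of them are named only by Gm or Rik numbers. Mef2b, a transcription factor, and Gm3417 had 9 absent. The single detected guide of Mef2b had 38.8, 0 and 12.4 normalised counts in dead galactose cells and 36.1 and 37.4 in living glucose cells. Tmem184a, a membrane protein, and Gm13306 had 8 absent, and Arfip1, which binds Arf and Arl GTPases at the Golgi, Manea, a Golgi mannosidase, and Gm14296 had 7. With 6 absent there were 1700015F17Rik, 1700029J07Rik, 1700034E13Rik, Borcs6 (listed as 2310047M10Rik), Ccdc127, Exph5, Hist1h2af, Serpina1b and Zfp931. Eola1, the gene in the study's title, had 4 of 10 absent (guides 3, 4, 8 and 9), and its guide 1 was at 0 in all 3 dead galactose libraries, against 32.9 and 1.25 normalised counts in living glucose cells.

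Among genes listed as needed for growth of most cells or of melanoma cells, absence was more frequent than elsewhere. This is given as a description with no test, because the list was chosen with earlier results of these data known. A list of 25 such genes had 90 of 260 guides absent, or 34.6% (95% Wilson interval 29.1 to 40.6%), against 1984 of 9011 guides of the other 904 genes, or 22.02% (21.2 to 22.9%). The median was 3 absent guides per listed gene and 2 per other gene, and 4 or more were absent in 11 of 24 listed genes (45.8%), leaving out Trappc13 with its 20 guides, against 161 of the 904 (17.8%). Guides of a gene share a target, so these guide-wise intervals are too narrow. The share was 30.8% in the list and 20.3% elsewhere when genes with 6 or more absent guides were left out of both.

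Classes within the list differed. Absence was most frequent for transcription, at 16 of 30 guides (53.3%), and for ribosome biogenesis, at 15 of 30 (50.0%). Supt5, an elongation factor of the first class, had 5 absent beside Ints3, and Wdr74 of the second had 4 beside Nol11. Each of these classes holds 3 genes, and Ints3 gave 8 of the 16 and Nol11 8 of the 15. Splicing had 17 of 60 absent (28.3%), with 5 each for Snrnp70 and Snrpd1, core proteins of splicing particles, and none for Snrpc. Replication had 4 of 20 (20.0%). Sox10, the transcription factor of the melanocyte lineage, Uhrf1, which maintains DNA methylation, and Snap23, a membrane fusion protein, had 5 absent each, and Aurka, a mitotic kinase, had 4, with 3 more of its guides at 46, 2 and 18 reads in all.

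The detected guides of the growth list were scarcer than the guides of all other genes pooled. Their median was 269, 316 and 307 normalised counts in the dead galactose libraries and 294 and 336 in the living glucose libraries, while guides of other genes had medians of 536, 549 and 542 in the dead galactose libraries and 570 and 562 in the living glucose libraries. Only 1 to 30 reads were found for 18 of 170 detected guides of the list (10.6%), against 362 of 7027 of other genes (5.15%). Lower levels were thus seen in both groups alike, but not in every class. The median was 801 normalised counts for secretion and 724 for the proteasome, which is 1 gene, Psmg4. In secretion, Trappc13 held 14 of the 34 detected guides, with a median of 1223 normalised counts. Ssr4 had a median of 1597 and Snap23 of 690, but Sec61a1 of 53.6. Lower levels were also not limited to the growth list. Detected guides of the mitochondrial genes described next had a median of 269.6 normalised counts, against 562 for all genes. A wider list of 61 growth genes, compiled after the genes with 6 or more absent guides had been seen, had 226 of 610 guides absent (37.0%), and that choice makes its share no separate evidence.

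In the lists of mitochondrial genes, of glucose and lactate transport genes and of genes with tissue roles, the share of absent guides lay closer to that of all gene guides. Of 80 guides to 7 mitochondrial genes 20 were absent (25%, interval 16.8 to 35.5%), with 5 for Sucla2, a subunit of succinyl-CoA synthetase, and 4 each for the superoxide dismutases Sod1 and Sod2. Counted by gene, 3 of the 7 (42.9%) had 4 or more absent, against 18.6% of all 929 genes, whatever their number of guides. Of 40 guides to 4 genes of glucose and lactate transport or their relatives, 10 were absent (25%), with 4 for the glucose transporter Slc2a1. Among 38 genes picked by symbol for cilium, germ cell, epithelial, olfactory or sensory roles, 98 of 377 guides were absent (26%, interval 21.8 to 30.6%), and 24.0% without Sprr2a1. Whether these genes are silent in melanoma cells was not tested. Each of these intervals, where given, holds the 22.4% of all gene guides. The mitochondrial interval and that of the glucose and lactate genes (14.2 to 40.2%) also hold the growth list's 34.6%. Gene families grouped by symbol ran wider: 43.3% absent for Tmem (13 of 30 guides, 3 genes) and 37.5% for Zfp (15 of 40, 4 genes). It was 26.7% for SOX, 25.9% for Rik and Gm, 22.1% for solute carriers, 20.9% for Fam and 20.3% for Ccdc. Among these families only Tmem and Zfp, of 3 and 4 genes, had a share as high as the growth list. Tmem184a gave 8 of the 13 absent Tmem guides, and Zfp931 gave 6 of the 15 absent Zfp guides. Their intervals were wide, at 27.4 to 60.8% for Tmem and 24.2 to 53.0% for Zfp.

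Across genes as a whole, the median level of detected guides changed little with the number absent, but it was lowest at the top end. That median was 578.2 normalised counts with none absent, 531 with 1, 593.5 with 2 and 580 with 3. It was 514 with 4, 514 with 5 and 461 with 6 to 9 absent. In genes with 6 to 9 absent, 8.25% of detected guides had 1 to 30 reads and 18.6% were at 0 in 1 to 4 libraries. With none absent, these shares were 6.06% and 13.3%. Over 916 genes the Spearman correlation between the number of absent guides and the gene's median detected level was -0.012. It is given as a description, since the genes share the same 5 libraries.

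Absence was found at every guide number. By guide number within a gene, the share ran between 20.7% for guides 1 and 2 and 24.4% for guide 10. Neighbouring guides of a gene went together to a small degree: a guide was absent in 27.6% of cases when the previous number was absent and in 21.1% when it was detected. For guides 5 numbers apart the shares were 26.2% and 22.4%.

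The absent guides carried identical statistics in the authors' deposited table. Each of the 2247 had there a log2 fold change of -0.70, a two-sided p-value of 0.424 and an FDR of 0.500, with a control mean of 0.624 although both living glucose values were 0. The authors' deposited table of genes has 925 entries, among them the non-targeting guides with 300. A single rule gave the number of guides in all of these entries. It drops guides at 0 in both living glucose libraries with a median of 0 in the dead galactose libraries. That rule drops 2357 guides, 110 of them not absent. No entry was given there to 5 genes: Gm14483, Mfap1b and Sprr2a1, with all 10 guides absent, and Gm14474 and Gm6026, with a single guide each.

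Genes with many absent guides therefore rest on few guides in that table. Tmem184a took the first place for loss in dead galactose cells on 2 guides, with a log2 fold change of -0.69 and an FDR of 0.115 in the authors' deposited table. Its guide 9 had 1742, 715 and 1348 normalised counts in dead galactose cells and 2357 and 2358 in living glucose cells. Guide 6 had 5529.7, 3558 and 3755 in dead galactose cells and 5393 and 5853 in living glucose cells, with overlap between the groups. Gm3417 had a log2 fold change of 5.04 there on 1 guide. In dead galactose cells it stood at 134, 109.6 and 2.32 normalised counts, against 4.71 and 0 in living glucose cells.

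Between dead galactose and living glucose cells, no gene among the heavily affected ones passed the test on its remaining guides. Of the 33 genes, 22 had 3 or more guides with a mean of at least 10 normalised counts, and limma on log2(normalised count + 1) called 0 of them at an adjusted p under 0.05, against a background of 0% of 915 genes tested. At an unadjusted p under 0.05 there were 5 of the 22 and 87 of the 915, and edgeR on recovered reads called 0 of 924 genes with 179 at an unadjusted p under 0.05. The 22 genes divided into 11 higher and 11 lower in dead galactose cells, with a median log2 difference of -0.04, against -0.16 over all genes tested. Of the growth list, limma tested 23 genes and called 0, with 7 higher and 16 lower in dead galactose cells, where all genes tested divided into 291 higher and 624 lower. The median log2 difference of the list was -0.27. At an unadjusted p under 0.05 it had 0 higher and 4 lower, where all genes tested had 14 higher and 73 lower. Those 4 were Lrwd1, a factor of the origin recognition complex, at a log2 difference of -1.76 ± 0.27 (SE, adjusted p = 0.236), Sec61a1, the pore of the secretory translocon, at -1.23 ± 0.22, and the elongation factors Supt6 at -1.09 ± 0.27 and Supt5 at -0.71 ± 0.20. A filter that keeps only guides with reads limits this to the part of each gene that was still present.

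The 5 genes at an unadjusted p under 0.05 stayed above the adjusted threshold in limma. Zfp931, a zinc-finger protein, had a log2 difference of 1.26 ± 0.24 (SE, adjusted p = 0.236), with guide 3 at 1116, 3339.8 and 2559.6 normalised counts in dead galactose cells and 339 and 733 in living glucose cells. 1700034E13Rik had 0.68 ± 0.24 (adjusted p = 0.398), with guide 6 at 67.7, 60.4 and 207 normalised counts in dead galactose cells and 20.4 and 7.49 in living glucose cells. Dscc1 had -1.54 ± 0.42 (adjusted p = 0.329), Serpina1b -0.96 ± 0.26 (adjusted p = 0.329) and Mettl16 -0.64 ± 0.25 (adjusted p = 0.495). The direction turned for 1700034E13Rik and Dscc1 with the median of guides, and for 1700034E13Rik and Serpina1b in edgeR.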

How the data were processed

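Guide reads from 3 libraries of dead galactose cells and 2 of living glucose cells were analysed. The submitters' processing notes list, without roles, Picard, STAR, Trim Galore and MAGeCK 0.5.9.5. The deposited guide table holds normalised counts per library, joined within a cell and without replicate numbers, so libraries are called a, b and c by their place there. The authors' table also gives a mean normalised signal per group, log2 fold changes, p-values and a score per guide, and the deposited gene table gives the count of guides used per gene. Whole reads were recovered from the normalised counts, with low values within 0.1 read of a whole number. The 13275778 to 15591454 reads of dead galactose libraries and 6801049 and 8492138 of living glucose libraries are exact only to the 5 digits deposited. Of 929 symbols, 923 matched RefSeq (GRCm38.p6), used for names only.

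Absent guides were counted by kind, gene and list with 95% Wilson intervals. The genes described are those with 6 or more of 10 guides absent, members of the lists, and Eola1. Nsun4 and Trappc13, entered under 2 gene IDs each, were left out of the counts over genes with exactly 10 guides. Gene differences were tested with limma 3.58.1 (R 4.3.3) on the mean log2(normalised count + 1) of guides with a mean of at least 10, in genes with at least 3 such guides, with Benjamini-Hochberg adjustment, and with edgeR 4.0.16 on recovered reads as an alternative. The fold change on this scale understates the change of low guides. The limma step was run on simulated data, in which all guides of a changed gene shared the same change, as a check of the code. It does not measure how many real changes would be missed in these libraries. The members and lists were chosen with earlier results of these data known. Other alternatives were the definition of absence, the count threshold, list classes, pseudocount, filters, scaling and leaving out each library. The UV-RIP-seq libraries of human cells were not used here.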

Additional observations from a re-analysis of the deposited data

How the results depend on the processing

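The share of absent gene guides was 23.4% with guides of at most 3 reads counted in, 24.2% with guides at 0 in all dead galactose libraries and 24.4% with guides at 0 in both living glucose libraries. Genes numbered 65 at 5 or more absent guides and 16 at 7 or more. Growth list classes alone ran from 20.0% for replication and 28.3% for splicing to 50.0% for ribosome biogenesis and 53.3% for transcription. These classes hold only 1 to 6 genes each. Mitochondrial classes alone gave 37.5% for Sod1, Sod2, Sucla2 and Suclg2 together, 13.3% for translation and RNA and 10.0% for the respiratory chain, and keratins and epithelia alone gave 31%.

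Leaving out each library in turn gave 2270 to 2305 absent guides, 22.6 to 22.95% of gene guides, 33 to 37 genes with 6 or more absent guides and 35.0 to 36.5% in the growth list. No limma call appeared in any alternative run, while genes at an unadjusted p under 0.05 numbered 87, against 153 without dead library a, 140 with equal totals, 179 in edgeR, and 31 and 30 without living libraries a and b. With equal totals the median of all genes was -0.28 in place of -0.16. With the median of guides the log2 difference was -0.0533 for 1700034E13Rik and 0.111 for Dscc1, and in edgeR it was -0.0425 for 1700034E13Rik and 0.0727 for Serpina1b; the cause was not tested. Without a library in turn, the median of the genes with 6 or more absent guides ran from -0.30 to 0.12. No paired analysis was possible because the columns carry no replicate numbers. Guide number could not be set against the control kinds, whose guides have no number within a gene. Depth limits absence: a guide at 0 may have been present at a level for which up to about 3 of 58883262 reads would be expected.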
